A study of Mus musculus with 8 samples.

Results

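The Argonaute-bound RNA of mouse neural progenitor cells was set against that of the neural precursors made from them 4 days later, using 4 of the 8 arrays of the series. All cells were E14Tg2A embryonic stem (ES) cells of strain 129/Ola, a long-established mouse line. To differentiate, they were cultured without LIF in chemically defined minimal medium with N2 and B27. They formed neural progenitor cells (NPC) at 6 days of in vitro differentiation and neural precursors (NPC/Neu) at 10 days, the last 4 days without B27. At each stage 1 array held Ago-RNA, precipitated from the cytosolic fraction with the anti-pan Ago antibody 2A8, and 1 held total RNA. The other 4 arrays held the same pair of samples from undifferentiated ES cells and from epiblast-like aggregates (ELA) at 2 days, and serve here for comparison. The study's methods describe ES cell medium as holding LIF and fetal calf serum, so ES cells differ from the later stages in medium too.

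Argonaute (Ago) proteins are the core of the RNA-induced silencing complex. Each carries a microRNA, whose seed pairs with matching sites that lie mostly in 3′ UTRs, and the complex then represses translation of the bound mRNA and hastens its decay. The repertoire of bound mRNAs therefore follows both the microRNAs a cell holds and the mRNAs that carry their sites. During neural differentiation the stem-cell miR-290 and miR-302 families are known to give way to let-7, miR-9 and other neural microRNAs.

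Ago enrichment, written E, was the log2 signal of a probe in Ago-RNA minus that in total RNA of the same stage, and the change of E was E of NPC/Neu minus E of NPC. A gene was said to gain Ago enrichment at a change of 1 or more, which is a 2-fold change of the ratio, and to lose it at −1 or less. Each array held RNA pooled from 3 independent experiments and no condition had a second array, so no test was possible and every difference below is a description of these 4 arrays. The only error that can be given is technical. Among 266 measured probes spotted 10 times on each array, the SD of the change of E between spots was 0.11, and different probes of one gene differed with an SD of 0.35. Because all arrays were brought to one distribution, E and its change are relative to the other RNAs, and an overall difference in how much RNA was bound would not be seen.

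All 4 arrays shared a slide and a scan. Of 55681 probes, 27124 (48.7%) were well above background on all 4 arrays, and they measured 20120 of 36163 named genes and transcripts, 12610 with a gene symbol. The 7 markers of neural progenitors and the 7 of neurons were well above background in total RNA at both stages. Neuronal markers were all higher in NPC/Neu, by 0.77 to 3.11 on the log2 scale, and 6 of the 7 progenitor markers were higher too, with a median difference of 0.50. The pluripotency factor Pou5f1 stood at 7.98 and 8.31, against 15.21 in ES cells. The 5 pluripotency markers were higher in NPC/Neu than in NPC, by 0.30 to 1.96. Of 5 fibroblast and mesenchyme markers 2 were higher, Col3a1 by 2.28 and Dcn by 0.59, and the median difference of the 5 was −0.31. Of the astrocyte markers 3 of 4 were well above background and none was higher in NPC/Neu, and the other lists held markers that moved either way. The part of such cells in the results was not tested, and in these mixed cultures fewer cells of a type cannot be told apart from less RNA per cell.

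The change of E had a median of 0.03 over the 20120 genes, with quartiles of −0.32 and 0.35. Enrichment was gained by 418 genes (2.08% of those measured) and lost by 842 (4.18%), and 93.7% of genes lay within ±1. Entries with a gene symbol made up 341 of the gains and 317 of the losses, so the excess of losses lay in entries without one. Among 12925 genes with an annotated 3′ UTR of at least 50 bases, 2.71% gained and 2.40% lost. Over all 20120 genes the counts were 50 and 206 at ±1.5, and 10 and 54 at ±2. The count of gains was 794 with the scanner's processed signal in place of the background model used here. Where several probes measured a gene, they moved in 1 direction in all 76 gained genes with more than 1 probe and in all 136 such lost genes. E itself was spread more widely in NPC/Neu than in NPC, with an SD over genes of 0.97 against 0.70. In ES cells that SD was 0.88 and in ELA 0.53. The genes that gained E had a median E of 0.40 in NPC and 1.63 in NPC/Neu, after 0.95 in ES cells and 0.19 in ELA. Those that lost it went from −0.23 to −1.57, after −0.89 and −0.08. Both groups thus had stood further from 0 in ES cells than in ELA.

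The ratio moves with either array, so both parts were examined. Across the 20120 genes the change of Ago-RNA and that of total RNA had a Pearson correlation of 0.74, a description over genes of the same arrays. Ago-RNA moved more than total RNA in 313 of the 418 gained genes (74.9%) and in 543 of the 842 lost genes (64.5%). With the processed signal the share among gained genes was 58.7%. Total RNA stayed within 0.3 in 132 gained and 239 lost genes, while Ago-RNA did so in 29 and 141. Ago-RNA and total RNA moved in opposite directions in 203 gained and 399 lost genes. The median gained gene had Ago-RNA higher by 1.09 and total RNA lower by 0.14, a change of −0.14. The median lost gene had a change of −1.08 in Ago-RNA and 0.18 in total RNA.

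**Figure D1:**
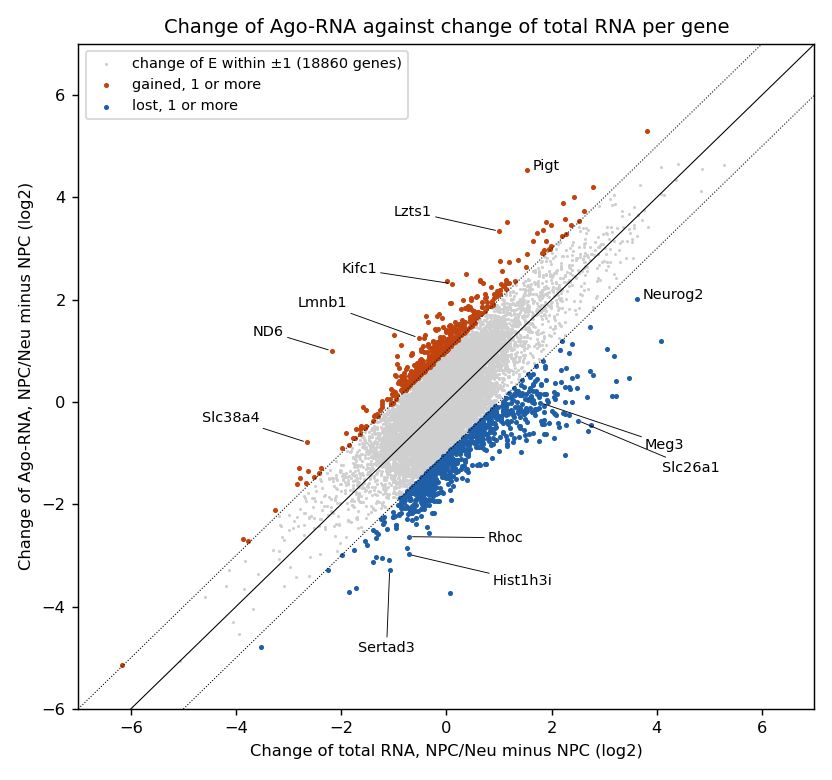
Log2 change of Ago-RNA (vertical axis) against log2 change of total RNA (horizontal axis) between NPC and NPC/Neu, each point 1 measured gene; on the solid line E was equal at both stages and the dotted lines mark a change of E of ±1. The 418 gained genes lie above and the 842 lost genes below the band; Kifc1, Lmnb1 and Pigt moved mainly in Ago-RNA, Slc38a4 and Slc26a1 mainly in total RNA, and 4930520P13Rik lies outside the axes.

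Among genes with a symbol, the largest gains were a mixture of nuclear, mitotic and membrane protein genes. ND6, a subunit of respiratory complex I encoded by the mitochondrial genome (probe at chrM:13552-13611), had log2 signals of 12.24 in NPC Ago-RNA, 12.77 in NPC total RNA, 13.24 in NPC/Neu Ago-RNA and 10.59 in NPC/Neu total RNA. Its change of E was 3.18, made of higher Ago-RNA and a larger drop of total RNA. Pigt, a subunit of the transamidase that attaches GPI anchors (chr2:164323020-164333801 of mm9, the build of all coordinates here), went from 11.14 to 15.67 in Ago-RNA and from 11.62 to 13.15 in total RNA. Its E changed by 3.00, and Ago-RNA alone made the gain, since total RNA was higher as well. Lzts1, a leucine zipper protein (chr8:71659345-71664908), had 8.69 and 12.03 in Ago-RNA against 7.63 and 8.63 in total RNA. The importin gene Ipo7 had 11.53 and 12.84 in Ago-RNA against 10.67 and 9.68. Their changes of E were 2.34 and 2.29, with E above 3 for both in NPC/Neu.

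Several gains came with nearly level total RNA. The mitotic kinesin gene Kifc1 (chr17:34012611-34027606) had 12.74 and 12.84 in total RNA while its Ago-RNA signal went from 11.77 to 14.08, a change of E of 2.21. Chtf8, which works in sister chromatid cohesion (chr8:109407790-109417493), had 15.32 and 15.19 in total RNA and 15.59 and 17.30 in Ago-RNA. For Psmd2, a base subunit of the proteasome (chr16:20651725-20663487), total RNA was 15.53 and 15.44 and Ago-RNA 16.24 and 17.89. The changes of E were 1.84 and 1.73, and in all these genes only the Ago-RNA arrays separated the stages. The RNA helicase gene Dhx9 followed with 1.64. Hspa4, a heat shock protein of the Hsp110 kind, changed by 1.86 on average, but its 3 probes ranged from 0.56 to 3.41.

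Other gains came from the total RNA side. Grb10, an imprinted adaptor of insulin and IGF receptor signalling (chr11:11830511-11938686), had Ago-RNA signals of 13.14 and 13.04 while total RNA went from 12.31 to 10.73. The change of E was 1.47 with Ago-RNA almost level. Kcnj4, a potassium channel (1.37), Melk, a kinase of dividing cells (1.31), and Aebp1 (1.26) and Pgcp (1.22) also kept Ago-RNA within 0.3. Slc38a4, an imprinted amino acid transporter, had lower signals in both, from 12.11 to 11.32 in Ago-RNA and from 13.04 to 10.39 in total RNA, and its E changed by 1.86. Klhl11 (1.93), Atad2 (1.85), the nuclear lamina gene Lmnb1 (1.79) and the laminin chain gene Lamc3 (1.74) completed the 12 largest gains, not all from the total RNA side. Klhl11 had 9.09 and 10.67 in Ago-RNA against 8.74 and 8.39 in total RNA, and Lmnb1 and Lamc3 also moved mainly in Ago-RNA.

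**Figure D2:**
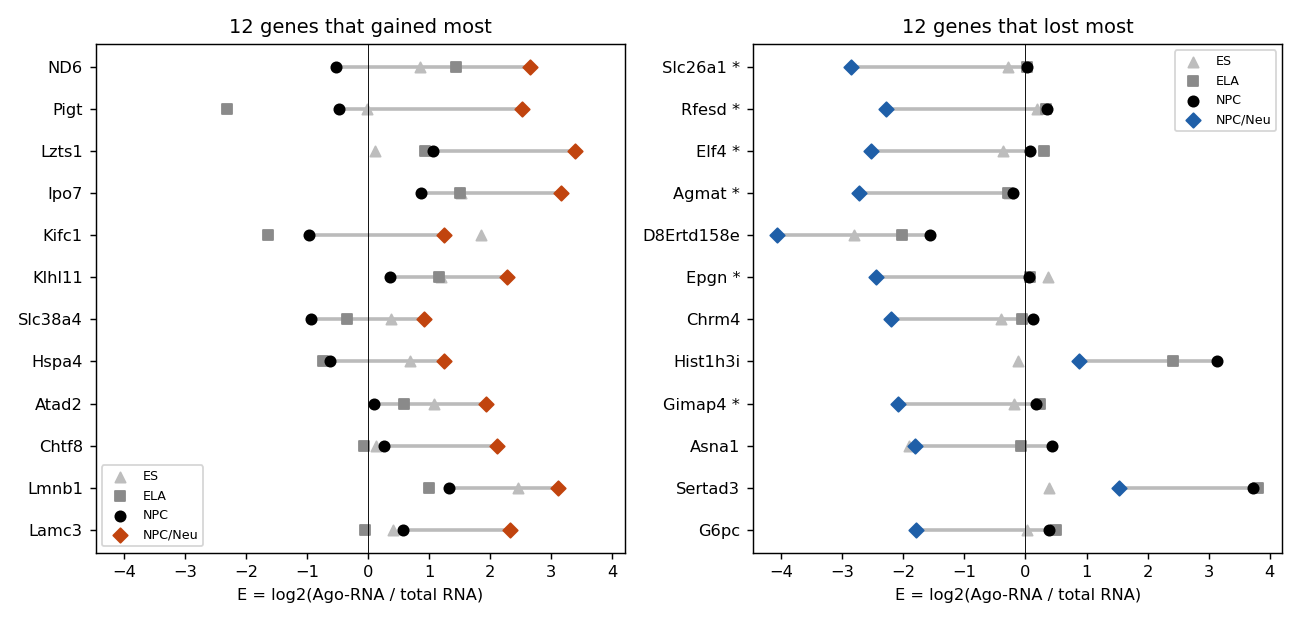
Ago enrichment E (horizontal axis, log2 of Ago-RNA over total RNA) at the 4 stages for the 12 genes with symbols that gained most (left) and lost most (right) between NPC (black circles) and NPC/Neu (coloured diamonds), 1 array pair per stage and no error bars. ND6 went from −0.53 to 2.65 and Slc26a1 from 0.02 to −2.85; stars mark 6 lost genes whose probe holds 7 or more bases in a row of the telomere-like repeat, and no gained gene is starred.

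The largest losses need to be read with the sequence of their probes, because of a pattern found after the values were seen. Of the 12 lowest genes with a symbol, 6 had a probe holding 7 or more bases in a row of the repeat CCCTAA, the letters of the C-rich telomere strand, and none of the 12 highest did. In all, 296 of the 20120 genes (1.47%) and 36 of the 842 lost genes had such a probe. The 26 bases shown around the stretch have it in capitals and are read as the array's probe, at mm9 probe positions chr5:109099563-109099622, chr13:76139029-76139088, chr5:91464119-91464178 and chrX:45766658-45766717 in this order.
Slc26a1: cacagtagACCCTAACCCcattcagt
Rfesd: acagtaacACCCTAACCaagatatat
Epgn: ccccgtttCTAACCCTcaaataccca
Elf4: catcacatCTAACCCgattctcgctt
The 4 probes measure different genes on different stretches of the genome.

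Slc26a1, a sulfate transporter gene, had 7.97 and 7.60 in Ago-RNA and 7.95 and 10.45 in total RNA of NPC and NPC/Neu, so that only NPC/Neu total RNA stood apart. Its change of E was −2.87, and those of Rfesd, Elf4, Agmat, Epgn and Gimap4 were −2.64, −2.60, −2.51, −2.50 and −2.25. Over the 138 probes with 8 or more such bases, the median log2 signal was 9.81 in NPC/Neu total RNA while the other 7 arrays of the series gave medians from 7.09 to 8.19. Of the 64 that were measured, 25 lost enrichment (39.1%), beside 4.53% of all measured probes, and 1 gained it. The median change of these 64 was −0.09 in Ago-RNA and 0.57 in total RNA. With 7 such bases 22 of 239 probes were lost (9.21%), with 6 bases 5.31%, and with 5 or fewer 4.37%. On the opposite strand, of 52 measured probes with 8 or more bases of TTAGGG repeats, 1 was lost (1.92%), and their median change of E was 0.02. With 7 bases of TTAGGG 12 of 161 were lost (7.45%), with 6 bases 5.52% and with 5 or fewer 4.49%. At 6 and 7 bases the shares of both strands thus lay close together, and they lay far apart at 8 or more. The letters describe the probes and do not name the RNA that bound them. Losses of genes with these probes are marked below, and their part in the result was not tested.

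**Figure D3:**
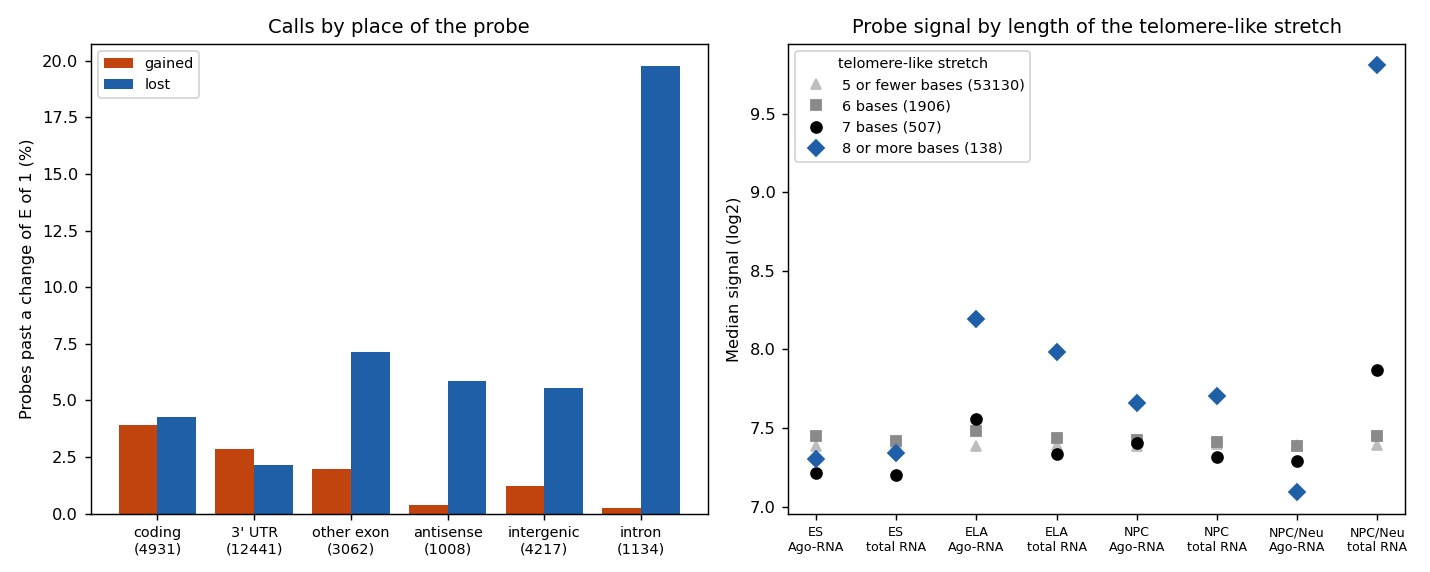
Left, percent of measured probes that gained (orange) or lost (blue) 1 or more in E, by where the probe lies, with the number of probes below; 19.8% of intron probes lost. Right, median log2 signal on each of the 8 arrays of all probes by the length of their longest stretch of CCCTAA repeat; for stretches of 8 or more bases it was 9.81 in NPC/Neu total RNA and at most 8.19 elsewhere.

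The remaining large losses fell into bright mRNAs whose Ago-RNA signal dropped and RNAs whose total signal alone was higher. Hist1h3i, a replication-dependent histone H3 gene (chr13:21874784-21875266), had 15.32 and 12.34 in Ago-RNA and 12.18 and 11.46 in total RNA. Its E went from 3.14 to 0.88, a change of −2.26, though histone genes are near copies of each other and their probes may share targets. Sertad3, a transcriptional coregulator (chr7:28258787-28262378), had 14.89 and 11.61 in Ago-RNA and 11.16 and 10.08 in total RNA. E changed by −2.20 from the 3.73 it had in NPC, and it had been 0.38 in ES cells and 3.82 in ELA. For Asna1, which targets tail-anchored proteins to the endoplasmic reticulum (chr8:87541833-87549177), Ago-RNA went from 11.23 to 8.66 with total RNA at 10.80 and 10.47. The change was −2.24, and E in NPC/Neu, −1.81, lay near the −1.91 of ES cells.

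Losses with level total RNA were found in genes of varied function. The kinase gene Cdk16 (chrX:20265080-20277006) had 14.09 and 11.92 in Ago-RNA against 12.18 and 11.93 in total RNA, and its E went from 1.92 to −0.02. The change was −1.93, and it was −1.90 for Rnh1, the ribonuclease inhibitor, −1.80 for Nrbp1, −1.77 for Fam122a and −1.76 for Zfp367. E of these 5 genes had been between −0.26 and 0.12 in ES cells, so that NPC and, except for Fam122a at 0.41, also ELA were the stages with high E. Chrm4, a muscarinic receptor gene, had 7.84 and 7.58 in Ago-RNA and 7.71 and 9.79 in total RNA, a change of −2.34 carried by total RNA. G6pc (−2.17) and Bmp3 (−1.87) were of the same kind. The Bmp3 probe holds 8 telomere-like bases and a probe of Chrm4 holds 6.

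The study's methods call an mRNA released where its Ago-RNA signal passes a binding threshold and E is at least 2 at the first stage, and E is at most 0.5 at the second with a change of at least 1.5, and loaded in the reverse case. Of 20120 measured genes 7 (0.0348%) were released and 13 (0.0646%) were loaded. With the limit for the second stage at 1.2 there were 19 (0.0944%) and 43 (0.214%), and counting also probes dim on some array 16 and 20. The processed signal gave 13 and 32.

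Neurog2, the proneural factor that drives cortical neurogenesis (chr3:127336054-127338549), was released although its RNA was more abundant. Its Ago-RNA signal was 11.83 in NPC and 13.84 in NPC/Neu, and its total RNA signal 9.78 and 13.41. E went from 2.05 to 0.44, a change of −1.61, with both arrays higher and total RNA more so. E had been −0.12 in ES cells and 0.35 in ELA. Rhoc, a small GTPase of the cytoskeleton (chr3:104591929-104597377), had mean signals of 16.87 and 14.24 in Ago-RNA and 14.27 and 13.55 in total RNA, and its 2 probes changed by −2.16 and −1.68, the first of which met the criteria. Its E was 0.32 in ES cells, 2.29 in ELA and 2.61 in NPC before it reached 0.68.

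The other released genes were Cox6b2, a testis-type cytochrome c oxidase subunit (−1.91), Zfyve21 (−1.67), Dguok, the mitochondrial deoxyguanosine kinase (−1.57), Mkrn3, an imprinted RING finger gene, and Reck, a membrane inhibitor of metalloproteinases. For Mkrn3 1 of 2 probes met the criteria, with −1.75, and the other changed by −0.98. For Reck the probe that met them, at −3.16, holds 7 telomere-like bases, and the other probe changed by −0.76. Among the loaded genes were ND6, Pigt, Chtf8 and Klhl11, and also Elp2, an Elongator subunit, with 15.48 and 16.80 in Ago-RNA against 14.98 and 14.57 in total RNA. Inpp4a, Ctnnal1 and Evc2 were loaded by 1 of their 2 probes. The other probe of Inpp4a changed by 0.06, that of Ctnnal1 by 0.49 and that of Evc2 by 0.54. The genes 2610305D13Rik and Gm13138 and 3 unnamed transcripts made up the rest.

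The place of the probe in its gene went with the change of E. Intron probes on the strand of the gene numbered 1134, of which 224 (19.8%) lost enrichment and 3 gained it, beside 4.53% and 2.48% of all measured probes, with a median change of −0.31. The median was 0.13 for 12441 probes in 3′ UTRs, with 2.14% lost, and 0.03 for 4931 in coding exons, with 4.26% lost. Antisense and intergenic probes lost in 5.85% and 5.55%. In the 224 lost intron probes, which lie in 148 host genes and share them in part, total RNA was higher in NPC/Neu for 205 and Ago-RNA for 42. Their median E went from −1.74 to −3.37. With probes dim on some array counted as well, 10.4% of intron probes lost and their median lay −0.15 from that of all probes, instead of −0.34. With the processed signal scaled to its 75th percentile 29.8% lost.

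Intron and mRNA probes of the same gene could be set side by side in 437 genes. The change of E was lower by the intron probes in 357 of them, with medians of −0.41 for introns and 0.22 for mRNA. Only 6 genes lost enrichment by their mRNA probes and 100 by their intron probes. In Auts2, a long gene of neuronal development, the mRNA probes had E of 0.30 in NPC and 0.13 in NPC/Neu, and the intron probes −1.41 and −4.15. An intron probe of it named C80140 (chr5:132200385-132200444) had 7.64 and 7.75 in Ago-RNA and 8.54 and 11.69 in total RNA, a change of −3.03. For Robo1, an axon guidance receptor, Ago-RNA of the mRNA probes was higher by 2.66 and total RNA by 2.18, while the intron probe D230034L24Rik had differences of 0.10 and 2.67. The transcription factor gene Ebf3 showed the same, with a change of E of 0.29 by mRNA and −2.88 by intron. D8Ertd158e (−2.51), among the 12 largest losses, is an intron probe of Zfhx3 whose mRNA probes changed by 0.35. These gene pairs were chosen after their values were seen. Introns are spliced out in the nucleus, and the immunoprecipitation began from the cytosolic fraction at both stages. Any part of this in the intron losses was not tested.

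RNAs known to stay in the nucleus or to act without being translated also had a median change below 0, but with other parts. Their median changes were −0.49 in Ago-RNA and −0.17 in total RNA, and those of the lost intron probes were −0.35 and 1.13. Of 16 measured, 0 gained and 4 lost, with a median change of −0.69 (−0.52 against all genes with dim probes included). Meg3, a maternally expressed noncoding RNA with 3 probes, had 9.80 and 9.78 in Ago-RNA and 12.08 and 13.86 in total RNA, and E of −2.29 and −4.08. Malat1, of nuclear speckles, had 10.57 and 9.98 against 13.52 and 14.14, a change of −1.21. H19, the imprinted noncoding RNA, differed in kind, since its E was 2.79 in NPC and 1.15 in NPC/Neu and its total RNA was near level at 8.12 and 7.85. Terc, the telomerase RNA (−1.84), was measured by a probe with 9 telomere-like bases. Tug1 changed by 0.38 and its 3 probes ranged from −0.24 to 0.70.

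Coding length ordered the mRNAs. In quintiles from the shortest (up to 681 bases) to the longest (2418 or more), over 13419 genes with an annotated coding sequence, the median change of E was −0.21, −0.05, 0.13, 0.29 and 0.39. Gains made up 0.45% of the shortest and 6.08% of the longest quintile, and losses 6.02% and 0.48%. The medians ran from −0.35 to 0.44 in Ago-RNA and from −0.12 to 0.09 in total RNA. The same order held for probes within 500 bases of the transcript end, at −0.19, −0.03, 0.17, 0.30 and 0.43. Spearman's rho between change of E and coding length was 0.46 across these genes, and 0.16 for 3′ UTR length. E itself followed coding length at each stage, with rho of 0.38 in NPC and 0.54 in NPC/Neu, after 0.63 in ES cells and 0.27 in ELA. Genes share the arrays and are no replicates, so these are descriptions. The median coding length was 2301 bases in gained genes, 702 in lost genes and 1323 in all, where a coding sequence was annotated. That held for 357 of the 418 gained genes but only 334 of the 842 lost genes.

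**Figure D4:**
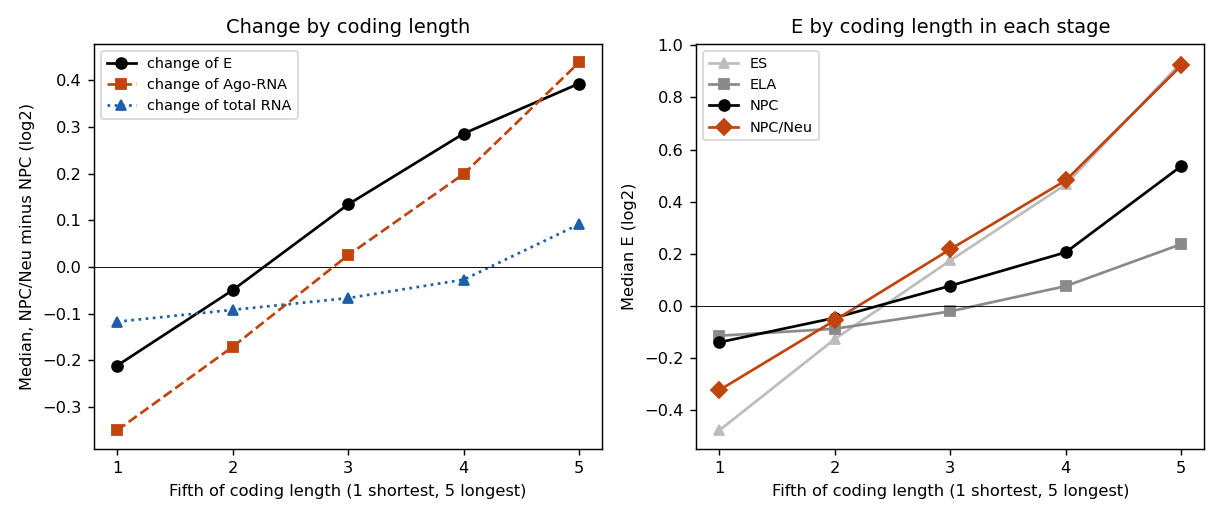
Left, median log2 change between NPC and NPC/Neu of E, Ago-RNA and total RNA by quintiles of coding length (1 shortest, 5 longest, 13419 genes in all); right, median E in each stage by the same quintiles. The median change of E ran from −0.21 to 0.39 across the quintiles, and E in NPC/Neu ran close to E in ES cells.

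Each gene list was also set against all genes in the same decile of coding length. Counts of members past ±1 are to be read beside the 2.08% of all measured genes that gained and the 4.18% that lost, and in a list of about 30 a single call is near those shares. Among genes with an annotated 3′ UTR the shares were 2.71% and 2.40%. Of 35 measured collagen and laminin genes, which build the extracellular matrix, 10 gained and 0 lost, with a median change of 0.75. Relative to genes of equal length the median was 0.34. Lamc3 had 7.94 and 10.33 in Ago-RNA and 7.37 and 8.01 in total RNA, Col6a1 changed by 1.54 and Col22a1 by 1.48, and Col7a1 stood lowest at −0.75. The list's median E went from 0.88 to 1.82, while its median change of total RNA was −0.11.

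Enzymes that charge tRNAs and genes of DNA replication and division also had medians above that of all genes. Of 34 aminoacyl-tRNA synthetase genes 4 gained (11.8%) and 1 lost (2.94%), with a median of 0.52 and, relative to length, 0.27. Lars (1.43), Eprs (1.30) and Iars2 (1.25) were highest and Sars (−1.06) lowest. Of 45 DNA replication genes 8 gained (17.8%) and 0 lost, led by Cdc45 of the replicative helicase (1.68), Pola1 of the primase complex (1.16) and Rrm1 of ribonucleotide reductase (1.15). Cdc45 had 10.61 and 11.34 in Ago-RNA and 10.74 and 9.80 in total RNA. The list's median change of E was 0.41 (0.31 relative to length), and its median changes were −0.33 in Ago-RNA and −0.64 in total RNA, separate medians that need not add up. Among 39 mitosis genes 4 gained (10.3%) and 1 lost (2.56%, against 4.18% of all genes and 2.40% of those with an annotated 3′ UTR). Their median was 0.38, with Ncapg at 1.21, Cdc20 at 1.18 and Cenpa, the centromeric histone, at −1.09. Of 33 kinesins 3 gained (9.09%) and 1 lost (3.03%), with a median of 0.52 (0.16 relative to length). Of 19 nucleoporins 2 gained (10.5%) and 1 lost (5.26%), with a median of 0.44 (0.06 relative to length), and the single losses lay near the share over all genes.

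Chromatin regulator families were those the study had grouped on arrays of this series, so their direction is no independent evidence. All 8 measured histone deacetylase genes had changes above 0, with a median of 0.47 (0.38 relative to length) and Hdac5, the 1 that gained, at 1.02. All 4 DNA methyltransferase genes lay between 0.42 and 0.72, for Dnmt3b and Dnmt3a, and none passed 1. Their median was 0.71 (0.33 relative to length). Of 12 histone demethylases of the KDM family 2 gained, Kdm4b (1.35) and Kdm4a (1.17), with a median of 0.67 (0.26 relative to length) and Kdm6b lowest at −0.29. The SWI/SNF and CHD remodellers had 3 gained of 34 and a median of 0.39, which was −0.02 relative to length, and Chd5, a neuronal remodeller, was highest at 1.67. The 8 genes grouped as PRC2, with Ezh2 at 0.23 and Suz12 at −0.23, had none past 1 and a median of 0.13 (−0.0042 relative to length).

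Ribosomal protein and respiratory chain genes, whose mRNAs are short, had medians below that of all genes. Of 79 cytosolic ribosomal protein genes 72 had a change below 0 and the median was −0.38, while 3 lost (3.80%) and 0 gained. That share lay below the 4.18% of all genes that lost and above the 2.40% of genes with an annotated 3′ UTR. In the shortest quintile of coding length the share lost was 6.02%. Of 74 mitochondrial ribosomal protein genes 8 lost (10.8%), with a median of −0.36 and Mrpl37 lowest at −2.07. Among 77 subunits of oxidative phosphorylation 6 lost (7.79%) and 2 gained (2.60%), with a median of −0.38. The 2 gains were Ndufs1 (1.19) and Sdha (1.07), and Ndufs5 (−1.48) and Ndufa5 (−1.44) were among the losses. Relative to coding length the 3 medians were −0.22, −0.24 and −0.19. With the processed signal scaled to its 75th percentile, the last 2 lists lay −0.26 and −0.17 from all genes instead of −0.39 and −0.41. Not every list of short mRNAs lay low: of 36 proteasome subunits 3 gained, Psmd2, Psmd1 (1.45) and Psmd13 (1.41), and 0 lost, with a median of 0.13. Ribosomal protein genes have many processed pseudogenes that their probes may also measure.

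Of 42 histone cluster genes 10 lost and 0 gained, with a median of −0.50 and −0.24 relative to length. Hist1h2bm (−1.38) followed Hist1h3i, and Hist1h1c was highest at 0.33. Their medians were −0.75 in Ago-RNA and −0.24 in total RNA, and the median E went from −0.13 to −0.63. With dim probes included the list lay −0.34 from all genes instead of −0.52.

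**Figure D5:**
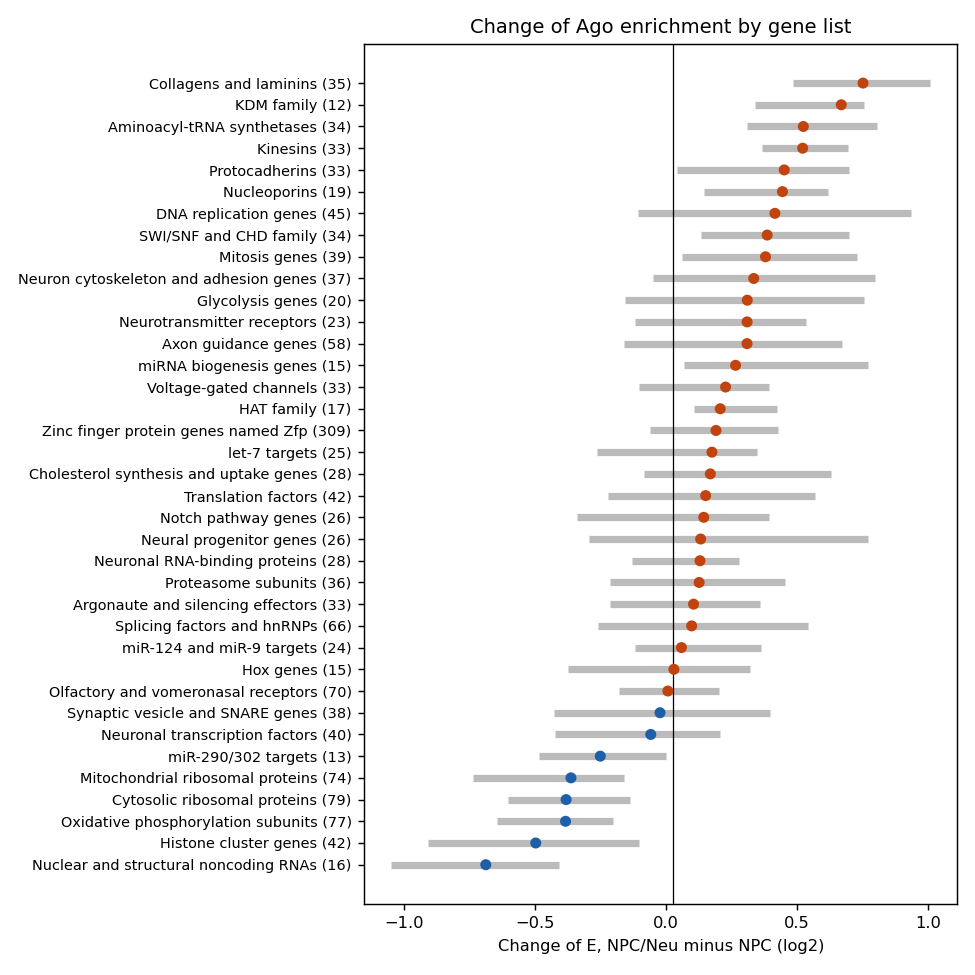
Median change of E between NPC and NPC/Neu (points) with the lower and upper quartiles (grey bars) for each gene list with 12 or more measured members, the number in parentheses; the vertical line is the median of all measured genes, 0.03. Collagens and laminins lie highest at 0.75 and nuclear and structural noncoding RNAs lowest at −0.69.

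Genes of the neural lineage were split by kind. Neural progenitor genes had 5 gained and 2 lost of 26, with a median of 0.13. Nes, the progenitor intermediate filament, had 15.55 and 17.79 in Ago-RNA and 14.86 and 15.70 in total RNA, a change of 1.40. Zic2 (1.72), Sox3 (1.57), Zic1 (1.2) and Cdh2 (1.09) gained as well, and the probe of Zic2 lies outside its annotated transcript. Hes5, a Notch target that holds progenitors undifferentiated, had 16.76 and 15.44 in Ago-RNA with total RNA at 16.28 and 16.19, and its change was −1.24. Emx2, a cortical homeobox gene, changed by −1.01.

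Genes switched on in neurons kept pace in Ago-RNA on the whole. The 40 neuronal transcription factors had median differences of 2.01 in Ago-RNA and 2.34 in total RNA, and a median change of E of −0.06. None of them gained and 2 lost, Neurog2 and Btg2, an antiproliferative gene (−1.27) whose probe holds 7 telomere-like bases. Sox11 was highest at 0.96. In the 37 neuron cytoskeleton and adhesion genes, Ago-RNA was higher by a median of 2.05 and total RNA by 1.72, with 5 gained and 0 lost. The adhesion gene Nrcam changed by 1.59, the synaptic organiser Nlgn2 by 1.25 and the kinesin Kif21b by 1.2, while the neurofilament gene Nefl stood at −0.69. Synaptic vesicle and SNARE genes had 1 gained and 1 lost of 38 and a median of −0.02. Of 58 axon guidance genes 4 gained, among them Plxnb2 (1.37) and Ntn1 (1.36), and Sema4b and Efna3 lost, both at −1.14. Their median of 0.31 was −0.02 relative to length.

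Components of the silencing machinery were spread about as all genes were. The Argonaute genes, named Eif2c1 to Eif2c4 on the array, changed by 0.20, −0.36, 0.40 and 0.19, and the GW182 genes Tnrc6a, Tnrc6b and Tnrc6c by −0.25, −0.32 and 0.41. The total RNA of Eif2c2 (Ago2) was 12.17 and 12.42, and that of Eif2c4 9.25 and 10.32. Of 33 Argonaute and silencing effector genes 1 gained, Cnot1, the scaffold of the CCR4-NOT deadenylase (1.12), and 1 lost, Cnot4 (−1.14), or 3.03% each beside 2.08% and 4.18% of all genes. The quartiles of this list were −0.21 and 0.36. Among 15 genes of microRNA biogenesis 3 gained. Xpo5, which exports precursor hairpins from the nucleus, had 12.23 and 12.73 in Ago-RNA and 11.70 and 10.75 in total RNA, a change of 1.45. Hnrnpa1 (1.13) and the helicase gene Ddx5 (1.06) gained too. Dgcr8 changed by 0.81, Drosha by 0.73 and Dicer1 by 0.18, and Tarbp2 stood lowest at −0.89. Lin28a, which blocks let-7 maturation, had lower signals in both, 16.56 and 13.94 in Ago-RNA and 14.48 and 12.37 in total RNA, with E of 2.07 and 1.57.

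MicroRNA sites were searched as letters in annotated 3′ UTRs of at least 50 bases, in 12925 measured genes. Of the 13 seeds 4 are shown, in capitals at bases 2 to 8, because they stand for the stem-cell and neural families (RefSeq mature sequences, tables of build GRCm38.p6).
let-7a: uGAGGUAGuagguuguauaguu
miR-9: uCUUUGGUuaucuagcuguauga
miR-302b: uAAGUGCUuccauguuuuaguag
miR-17: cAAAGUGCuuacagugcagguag
The seeds of miR-302b and miR-17 overlap by 6 bases when shifted by 1. A 7-base site was the reverse complement of bases 2 to 8, or that of bases 2 to 7 followed by an A. An 8-base site was the reverse complement of bases 2 to 8 followed by an A, as in CTACCTCA for let-7, ACCAAAGA for miR-9, AGCACTTA for miR-302 and GCACTTTA for miR-17.

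With 7-base sites, the median change of E of genes with a site lay from 0.00 to 0.09 above that of genes without one, for all 13 families. The neural miR-9 family was highest (0.19 in 2733 genes against 0.09), and let-7 genes had 0.17 against 0.10. Within tertiles of UTR length, from short to long, the differences were 0.01, 0.01 and 0.01 for let-7 and 0.09, 0.01 and 0.02 for miR-9. They were below 0 in all tertiles for miR-302 (−0.04, −0.08 and −0.04), miR-17 (−0.05, −0.11 and −0.04), miR-137 (−0.06, −0.04 and −0.0024), miR-92 (−0.06, −0.02 and −0.0029) and miR-30 (−0.01, −0.01 and −0.03), so the sign of the pooled difference did not hold at like UTR length for these families. With 8-base sites miR-17 stood lowest. Its 521 genes had a median of 0.00 against 0.12 in the rest, and 5.76% of them lost enrichment against 2.26%. Within tertiles of UTR length, from short to long, the differences were −0.26 (35 genes), −0.46 (133 genes) and −0.13. Their median E was 0.54 in NPC and 0.51 in NPC/Neu, still above the 0.12 and 0.23 of genes without such a site. Next came miR-92, whose 349 genes had 0.07 against 0.11, with 4.01% lost against 2.35%. Its differences within tertiles were −0.52 (23 genes), −0.13 and −0.04. Median E of genes with a miR-92 site was 0.55 in NPC and 0.59 in NPC/Neu, against 0.12 and 0.23 in the rest. For miR-302 the 411 genes with a site had 0.09 against 0.11, with 3.89% lost against 2.35%. Genes with an 8-base let-7 site, 440 in all, had 0.24 against 0.11, and 0.91% of them lost against 2.45%. Within tertiles the let-7 differences were 0.07 (36 genes), 0.12 and 0.06. The share lost was also low with 8-base sites of miR-128 (0.29%), miR-26 (0.69%) and miR-181 (0.92%). miR-124 was not used here.

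Known targets, from lists drawn up with earlier results of these data in view, were also examined. Of 13 genes reported as targets of miR-290 or miR-302, 0 gained and 3 lost, with 10 below 0 and a median of −0.25 (−0.42 relative to length). Rhoc led, and Cdkn1a, the p21 inhibitor of the cell cycle, had 12.08 and 11.29 in Ago-RNA and 11.16 and 11.68 in total RNA, a change of −1.32 with both probes past −1. Tgfbr2, the type II TGF-beta receptor, had level Ago-RNA, 10.68 and 10.76, and higher total RNA, 9.05 and 10.19, a change of −1.06. Lefty2 stood at 0.80. Of 25 let-7 targets 2 gained, among them Igf1r (1.2), and 0 lost, with a median of 0.17 that was 0.00 relative to length. Of 24 targets of miR-124 and miR-9, 1 gained, Itgb1 (1.03), and 1 lost, Rhog (−1.12), whose probe holds 8 telomere-like bases.

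Probes that were well above background on 3 of the 4 arrays give only a bound. A gain was bounded for 745 probes dim in NPC Ago-RNA, of which 23 exceeded 1, and for 329 dim in NPC/Neu total RNA, of which 9 did. A loss was bounded for 963 probes dim in NPC/Neu Ago-RNA, 128 of them past 1, and for 162 dim in NPC total RNA, 3 past 1. The largest bounded gains were those of a probe of Nup93, a nucleoporin, with a ratio at least 4.45-fold higher in NPC/Neu, and of a probe of Pdzd2, at least 3.49-fold higher. Other probes measured these genes on all 4 arrays, with changes of E of 0.89 for Nup93 and 0.41 for Pdzd2, both under 1. The largest bounded losses were Kif12, at least 11.5-fold lower, Krtap12-1 (at least 10.0-fold), Cpped1 and Serpina3m (both at least 9.62-fold) and Cpb2 (at least 9.56-fold). A second probe of Cpped1, measured on all 4 arrays, changed by 0.15. The last 4 of these dim probes hold 7 or 8 telomere-like bases and that of Kif12 holds 6. Kif12 had 8.18 and 6.85 in Ago-RNA and 7.81 and 10.11 in total RNA, and so was bright on the NPC/Neu total RNA array alone, as were the other 4. The floor, the dimmest signal well above background, lay between 6.75 and 7.02 on the 4 arrays.

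Both ends of the scale were held by transcripts outside the named genes, singled out after their values were seen. LOC790956 had 14.59 and 10.85 in Ago-RNA and 15.05 and 15.12 in total RNA, a change of −3.82. For 4930520P13Rik the change of 10.96 came from 1 array, since its signal was 19.40 in NPC total RNA and 7.55, 7.60 and 8.49 on the other 3. Each was measured by a single probe.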

How the data were processed

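Ago-RNA and total RNA were hybridised to 1-colour Agilent SurePrint G3 Mouse 8x60K arrays, 1 array per condition. The authors deposited the scanner output, whose values are Cy3 intensities per spot with local background, from Feature Extraction (10.7.3.1 in the file headers, 9.1 in the submitters' processing notes, which also name limma). From these, mean and background signals were corrected with normexp (offset 50), irregular spots were left out, and quantile normalization of the log2 values took all 8 arrays together, after the methods, with limma 3.58.1 in R 4.3.3. Spots of a probe were averaged, and so were a gene's measured probes. Measured means well above background and not saturated on all 4 arrays. The binding threshold lay 3 SD over the mean of the lower of 2 fitted Gaussians (mclust 6.1.1). Probes were first placed by an exact match of their whole sequence to coding transcripts of GENCODE vM1 (mm9). Those without a match were placed by their stated positions on the same build, in Python 3.11.15. Scripts were tested on simulated data.

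Named were the 12 highest and 12 lowest genes with a symbol, the released and loaded genes, 5 per direction with Ago-RNA or with total RNA within 0.3, up to 3 at each end of a list, silencing, microRNA biogenesis and nuclear RNA genes, and 5 bounds per direction. Members and lists were chosen with earlier results of these data known. Precision is limited by the number of arrays. No array of a control precipitation was used here. No library of microRNAs was used here. A gene that this rule names is not reported here.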

Additional observations from a re-analysis of the deposited data

How the results depend on the processing

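No paired analysis was possible because each group has 1 array, and there was no replicate to leave out. Quantile normalization removes any overall difference in recovery, and dim probes compress changes. No recomputed median larger than the SD between spots changed sign under the alternatives run. For single genes the sign was checked only for those past ±1. The 145 named genes past ±1 kept their sign in 1150 of 1150 alternative values and stayed past 1 in 1089. Of 240 recomputed counts, shares and medians, 212 stayed within 1.5 times (counts), a 95% interval (shares) or the SD between spots (medians), and the other 28 follow. Of the values of single named genes, 2255 stayed within the SD between spots and 414 moved by more, among them 204 with the 75th percentile scaling, 84 with quantile normalization within each kind of RNA and 71 with the processed signal quantile normalized.

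With the scanner's processed signal, quantile normalized, 794 genes gained (418 as reported), 32 were loaded (13) and 13 released (7), Ago-RNA made the larger part in 58.7% of gains (74.9%), and kinesins lay 0.65 from all genes (0.49). With the processed signal scaled to its 75th percentile, 22 were loaded, the shares were 69.1% of gains and 69.3% of losses (64.5%), and the distance from all genes was 0.61 for kinesins, 0.51 for mitosis genes (0.35), −0.38 for histones (−0.52), −0.26 for mitochondrial ribosomal proteins (−0.39), −0.17 for oxidative phosphorylation (−0.41) and −0.50 for intron probes (−0.34). Quantile normalization within each kind of RNA gave 80.1% of gains. With dim probes included, 20 were loaded, 16 released, 61.0% of losses had the larger part in Ago-RNA, and the distances were 0.49 for collagens and laminins (0.72), −0.34 for histones, −0.52 for nuclear RNAs (−0.71), −0.15 for intron probes and 0.43 between the longest and shortest quintile (0.60). A change of 1.5 left 50 gains and 206 losses (842), a limit of 1.2 gave 43 loaded and 19 released, and 8-base miR-17 sites a difference of −0.12 (0.00 with 7 bases). An offset of 16, normalization over 4 arrays, the median over probes and leaving out probes with 7 or more telomere-like bases, an alternative chosen after seeing the data, moved none of them that far. Without those probes 415 genes gained and 813 lost.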
